A study of Mus musculus with 7 samples.

Results

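Slc16a12 and Gm43474 are the genes described here, 2 of the 48440 genes in the count table of the islet libraries. They were selected by symbol and gene ID with their measured difference between VLX-1005 and vehicle already known from these libraries, so their levels and fold changes are given as a description and carry no test. Slc16a12 encodes a membrane transporter of its own. Gm43474 is an unnamed gene model that lies on the other strand across the first exon of a transporter gene, Slc15a4. The islets came from prediabetic female NOD.hALOX12 mice, 10 weeks old at harvest. In this nonobese diabetic strain the coding sequence of human ALOX12 stands in place of the mouse gene Alox15 under the mouse regulatory region, and both groups carry the replacement. One group (3 libraries) was given VLX-1005, an oral small-molecule inhibitor of the human enzyme, at 30 mg/kg in a spray-dried dispersion for 4 weeks, and the other (4 libraries) was given vehicle for the same time. Whether the libraries were made from different animals is not in the labels, so the p-values reflect only how these samples vary, which may be in part technical. Whole islets were used, and in such bulk RNA fewer cells of a type and less RNA per cell cannot be told apart.

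Slc16a12 belongs to the monocarboxylate transporter family, whose best known members move lactate and pyruvate together with protons. Slc16a12 itself carries creatine, which cells use as a store of high-energy phosphate, across the plasma membrane, and it is known from kidney, retina and lens. Slc15a4 belongs to the family of proton-coupled peptide transporters. It sits in the membrane of endolysosomes, where it moves histidine and small peptides and anchors the adaptor TASL, through which Toll-like receptors 7 and 9 activate the transcription factor IRF5. Gm43474 has the class TEC, given to gene models that still await experimental proof, and no function is annotated for it.

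The positions are on mm10 (GENCODE release M21). Slc16a12 (ENSMUSG00000009378.3) occupies chromosome 19 from 34668403 to 34747289 on the minus strand. Its main transcript has 7 exons, of which the last (34668403 to 34670893) is 2491 bases long, and its exons together cover 4170 bases. No annotated exon lies opposite any of them. Gm43474 (ENSMUSG00000105362.1) is a single exon of 774 bases on the plus strand of chromosome 5, from 127616992 to 127617765. Of these, 427 bases lie opposite exonic sequence of Slc15a4, and 378 lie opposite coding bases of its exon 1 (127616815 to 127617416 in the main transcript of 8 exons). The remaining 347 bases lie opposite no exon of Slc15a4, upstream of where its main transcript starts. The promoter window of Slc15a4 in RefSeq, 300 bases in all, falls entirely inside Gm43474, and its bases are the complement of those of the gene model. On this stretch the strand of a read is all that separates the genes.

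The sequences below are shown because they lie just upstream of each transporter gene and in the overlap on chromosome 5. The first pair are the 250 bases upstream of the RefSeq start of each transporter gene (GRCm38.p6), at chr19:34747329-34747578 for Slc16a12 and chr5:127617393-127617642 for Slc15a4, both on the minus strand, with any CACGTG (the E-box, the same on both strands) in capitals. The RefSeq start of Slc16a12 is 39 bases upstream of the M21 start. The third is the 120 bases of Gm43474 at chr5:127617250-127617369 on the plus strand, with CAT, the complement of the Slc15a4 start codon, in capitals.
Slc16a12 promoter: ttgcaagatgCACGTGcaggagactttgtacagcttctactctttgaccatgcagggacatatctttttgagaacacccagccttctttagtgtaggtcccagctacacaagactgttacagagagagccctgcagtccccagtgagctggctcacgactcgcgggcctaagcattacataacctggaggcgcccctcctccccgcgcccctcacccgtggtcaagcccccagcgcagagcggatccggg
Slc15a4 promoter: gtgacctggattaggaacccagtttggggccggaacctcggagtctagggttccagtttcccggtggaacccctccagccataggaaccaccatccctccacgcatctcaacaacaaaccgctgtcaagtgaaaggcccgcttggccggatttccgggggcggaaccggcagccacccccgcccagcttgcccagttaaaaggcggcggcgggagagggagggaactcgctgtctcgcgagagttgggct
Gm43474, opposite Slc15a4 exon 1: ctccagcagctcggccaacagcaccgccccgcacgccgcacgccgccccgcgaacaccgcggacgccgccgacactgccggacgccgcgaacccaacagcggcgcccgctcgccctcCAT
The Slc16a12 window held 1 CACGTG, a motif found in 6.02% of the 32851 promoters of the table, and the Slc15a4 window held none. The GC content was 57.6% with 11 CpG in the Slc16a12 window and 62.8% with 17 CpG in the Slc15a4 window, against a median of 52.4% over all windows. The Gm43474 stretch was richer still, at 77.5% GC with 22 CpG. Over the longest transcript, GC content was 44.1% for Slc16a12 and 66.0% for Gm43474. Among the tested genes these were the 16.4th and 98.3rd percentiles. Gm43474 thus sits near the GC-rich end, and Slc16a12 in the lower part of the range.

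The libraries held 1024586 to 1430785 counts with VLX-1005 and 1150643 to 1310331 with vehicle, and a count of 0 in a library still allowed 3 counts, or 2.10 to 2.93 CPM (counts scaled to the library total), by counting error alone. The library kit kept strand, but the strand setting of the counting is not given in the sources used here, so reads from a gene and from a partner on the other strand cannot be told apart with certainty. Genes with an exon opposite another gene's exon, 8460 of the 48058 with a position, held 95.7 to 96.3% of each library's counts. The own rows of defining islet genes were low. Ins2, an insulin gene, lay at 80.7 to 143 CPM in VLX-1005 libraries and 128 to 177 CPM in vehicle libraries. Actb, the beta-actin gene that most cells express strongly, lay at 0.776 to 19.1 CPM with VLX-1005 and 2.73 to 5.39 CPM with vehicle, so a low own row here does not show that a gene was little expressed. Summed beta cell markers (6 genes) reached 166 to 293 CPM with VLX-1005 and 246 to 339 CPM with vehicle, and 7 acinar markers 29.3 to 110 CPM and 32.1 to 92.3 CPM. Of 6 immune markers Adgre1 was at 0, and their sum was 270 to 304 CPM with VLX-1005 and 245 to 315 CPM with vehicle. Only 1 of these immune rows had enough counts to be tested, so the sum does not measure immune cell content. The sums of the alpha, delta and PP cell markers (5 genes) were 120 to 274 CPM with VLX-1005 and 185 to 245 CPM with vehicle. The 3 duct markers summed to 0 to 2.87 CPM with VLX-1005 and 0 to 2.31 CPM with vehicle, and the 4 stroma and vessel markers to 3.88 to 8.60 CPM with VLX-1005 and 1.56 to 4.17 CPM with vehicle. Tested were 3 beta cell, 3 alpha, delta and PP cell, 2 acinar and 1 immune marker rows, and 0 duct or stroma and vessel rows. None was called (edgeR adjusted p under 0.05). With 2.37% of all tested genes called, this is no result about cell types. The part of other cell types in the results below was not tested.

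Slc16a12 had 397, 340 and 192 counts in VLX-1005 replicates 1 to 3 and 83, 103, 83 and 77 counts in vehicle replicates 1 to 4. After scaling to CPM with edgeR's TMM factors (trimmed mean of M values), this was 270, 325 and 149 with VLX-1005, against 69.2, 79.2, 75.7 and 60.2 with vehicle. Every VLX-1005 library lay above every vehicle library, the lowest VLX-1005 library being 1.88 times the highest vehicle library. The means were 248 ± 90.1 CPM with VLX-1005 (SD, n = 3) and 71.1 ± 8.35 CPM with vehicle (SD, n = 4). The VLX-1005 libraries were uneven, with replicate 2 the highest and replicate 3 the lowest (2.18-fold apart), whereas the vehicle libraries differed by 1.32-fold at most. The log2 fold change was 1.80 ± 0.24 (SE, edgeR fit), the 63rd largest among tested genes. Groups that do not overlap in CPM were found for 17.6% of the 4218 tested genes (744), and 2.37% (100) were called at an edgeR adjusted p under 0.05, 99 of them higher with VLX-1005 and 1 lower, with 759 at an unadjusted p under 0.05.

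Gm43474 had 77, 104 and 24 counts in VLX-1005 replicates 1 to 3, against 4, 5, 1 and 4 counts in vehicle replicates 1 to 4. These counts correspond to 52.4, 99.4 and 18.6 CPM with VLX-1005, against 3.33, 3.85, 0.912 and 3.13 CPM with vehicle. The groups did not overlap, and the lowest VLX-1005 library was 4.84 times the highest vehicle library. The means were 56.8 ± 40.6 CPM with VLX-1005 (SD, n = 3) and 2.81 ± 1.30 CPM with vehicle (SD, n = 4). The vehicle libraries lay close to the limit set by a count of 0, so the gene reached the test only through the VLX-1005 libraries, and its fold depends on how counts of that size are treated. With that reservation the ratio of the means was 20.3 and the log2 fold change 4.25 ± 0.60 (SE, edgeR fit), the largest among tested genes.

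**Figure D1:**
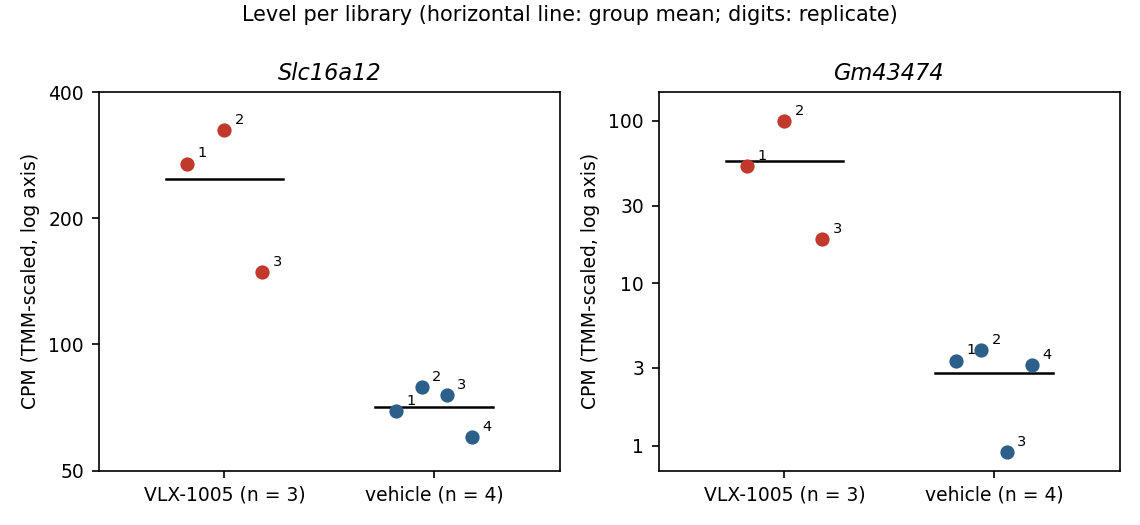
TMM-scaled CPM of Slc16a12 (left) and Gm43474 (right) in each library, on log axes, with VLX-1005 left of vehicle; points are libraries, digits are replicate numbers and horizontal lines are group means. In both genes VLX-1005 replicate 2 is the highest and replicate 3 the lowest of the VLX-1005 libraries, and all 3 lie above the 4 vehicle libraries.

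Divided by kb of exon, the row of Slc16a12 averaged 59.5 CPM per kb with VLX-1005 and 17.0 with vehicle. That of Gm43474 averaged 73.4 with VLX-1005 and 3.62 with vehicle. The rows were thus of like size in VLX-1005 libraries only. With the strand of the counts uncertain, these are values of rows and not levels of the genes. The ratio of Slc16a12 to Gm43474 counts was 5.16, 3.27 and 8.0 in VLX-1005 replicates 1 to 3, and 20.8, 20.6, 83.0 and 19.2 in vehicle replicates 1 to 4. It was lower in every VLX-1005 library than in any vehicle library, which is the same difference in fold change seen from another side. By counts within a group, Slc16a12 was 10th with VLX-1005 and 39th with vehicle (16th over all 7 libraries) among the 16433 protein-coding genes without an opposite exon, of which 80.7% had fewer than 10 counts over the 7 libraries and whose median was 1.

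Both genes followed the same order over the VLX-1005 libraries (replicate 2 above 1 above 3), and so did the share of counts from ribosomal RNA genes. That share was 2.55, 3.14 and 2.15% in VLX-1005 replicates 1 to 3, against 2.04, 1.69, 2.11 and 2.05% in vehicle replicates 1 to 4. Among vehicle libraries, replicate 2 had the lowest share and the highest Slc16a12 level (79.2 CPM). Replicate 3 had the highest share and 75.7 CPM of Slc16a12, against 69.2 and 60.2 CPM in replicates 1 and 4. Vehicle counts of Gm43474 (4, 5, 1 and 4) were too close to a count of 0 to be ordered. With the share as a covariate, the log2 fold change of Slc16a12 was 1.22 ± 0.28 and that of Gm43474 was 2.68 ± 0.58 (SE), and no gene of the table was called. The share was higher in every VLX-1005 library than in any vehicle library, so its part and that of treatment cannot be told apart by this fit. The part of the share in the difference was not tested.

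Slc15a4, the endolysosomal transporter gene opposite Gm43474, was almost without counts of its own. Its row (chromosome 5 from 127595664 to 127632897, minus strand) had 0 counts in each of the VLX-1005 libraries and 1 count in all over the vehicle libraries, in replicate 2. Over the 5312 exonic bases of Slc15a4 there was thus 1 count in 7 libraries, against 219 counts over the 774 bases of Gm43474. With these counts no comparison of Slc15a4 could be made, and the parts of depth and of the strand setting in its near-empty row were not tested.

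The rows around Gm43474 were as empty. Such rows were common in these libraries: of 39598 genes with a position and no opposite exon, 3644 had at least 10 counts. Near-empty neighbours are thus no feature particular to the locus of Gm43474 or, below, of Slc16a12. Within 200 kb lay 5 genes, 3 on its strand and 2 on the other, and together they had 7 counts. The lincRNA Gm42980, 36.9 kb away on the same strand, had 6 of them, 1 with VLX-1005 and 5 with vehicle. Tmem132c and Glt1d1 on the same strand and Tmem132d on the other had none, and no neighbour could be tested.

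Around Slc16a12, 14 genes within 200 kb were in the table, 6 on its strand and 8 on the other. Of these, 11 had fewer than 10 counts, 9 counts in all, and 6 had none. They included the interferon-induced genes Ifit1, Ifit1bl1, Ifit1bl2, Ifit2, Ifit3 and Ifit3b, which stand downstream of Slc16a12, and Ifit1, the nearest of them at 18.4 kb on the other strand, had 1 count with VLX-1005 and 2 with vehicle. Pank1, a pantothenate kinase of coenzyme A synthesis 59.7 kb upstream, had 4 counts with VLX-1005 and 8 with vehicle. Ch25h, which makes 25-hydroxycholesterol, had 11 counts with VLX-1005 and 4 with vehicle, too few to test. A processed pseudogene, AC016791.1 (34710008 to 34711016, plus strand), lies in the span of Slc16a12 outside its exons and was not analysed here.

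Gm26902 was the only neighbour of either gene that could be tested. This long noncoding RNA lies 186.9 kb downstream of Slc16a12 on the other strand, and 159 of its bases are opposite Ch25h. It had 47, 49 and 105 counts in VLX-1005 replicates 1 to 3 and 24, 35, 6 and 29 counts in vehicle replicates 1 to 4. Here replicate 3 was the highest of the VLX-1005 libraries, where Slc16a12 was lowest, and the groups did not overlap. The log2 fold change was 1.49 ± 0.44 (SE), which did not pass the test (edgeR adjusted p = 0.125) but did with DESeq2 (adjusted p = 0.0312) and with no filter on low counts (edgeR adjusted p = 0.000191).

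**Figure D2:**
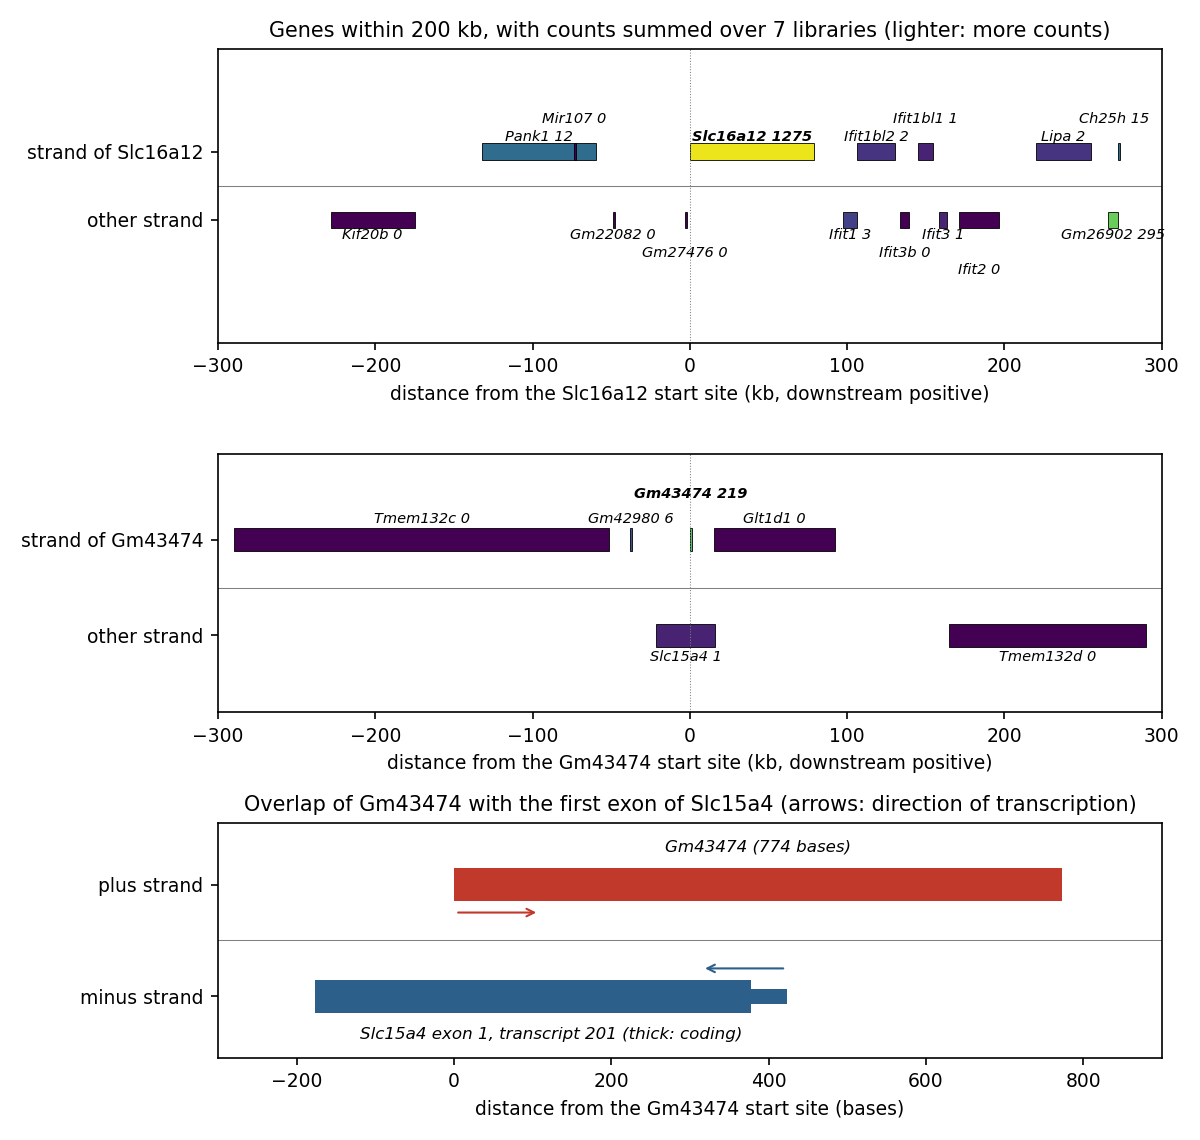
Genes of the table within 200 kb of Slc16a12 (top) and Gm43474 (middle) by distance from their start site in kb, on the same strand (upper lane) and the other strand (lower lane), each with its counts summed over the 7 libraries and boxes cut at the plot edge; the bottom panel shows the overlap of Gm43474 with Slc15a4 exon 1 in bases. Slc16a12 (1275 counts) and Gm43474 (219 counts) stand among genes of at most 15 counts, except Gm26902 (295 counts).

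Among the 13 other members of the Slc16 family, 4 were tested and none was called. With 2.37% of all tested genes called, this is no result about the family. Slc16a8, a lactate transporter, averaged 171 ± 10.6 CPM with VLX-1005 (SD, n = 3) and 163 ± 20.7 CPM with vehicle (SD, n = 4), a log2 fold change of 0.07 ± 0.15 (SE, edgeR adjusted p = 0.848). Slc16a6 averaged 130 ± 23.2 CPM with VLX-1005 and 156 ± 8.32 CPM with vehicle, -0.25 ± 0.16 on the log2 scale (edgeR adjusted p = 0.436), and 1052 of its bases are opposite Amz2. Slc16a5 gave 0.08 ± 0.26 (edgeR adjusted p = 0.907), and Slc16a11 gave -0.11 ± 0.27 (edgeR adjusted p = 0.874). In each of these the groups overlapped. Slc16a3, which exports lactate from glycolytic cells, had 24 counts with VLX-1005 and 25 with vehicle, Slc16a4 had 8 and 10, and 7 members had fewer than 10 counts in all, Slc16a1 among them with 2 and Slc16a7 with 0. Of 5 rows opposite these members 3 were tested and 0 called with edgeR (1 at an unadjusted p under 0.05). Of all 4218 tested genes, 759 had an unadjusted edgeR p under 0.05.

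Per kb of exon, the Slc16a12 row (59.5 with VLX-1005, 17.0 with vehicle) changed place among tested Slc16 rows between the groups. The doubt about strand applies here too, so this is no ranking of expression in the family. Slc16a8 stood above Slc16a12 in both groups, at 75.0 with VLX-1005 and 71.5 with vehicle, though with VLX-1005 the libraries of the pair overlapped. Slc16a6 (26.7 with VLX-1005 and 31.9 with vehicle) and Slc16a5 (20.3 with VLX-1005 and 19.3 with vehicle) stood below Slc16a12 with VLX-1005 and above it with vehicle. With vehicle the values of Slc16a12 and Slc16a5 overlapped between libraries. Slc16a11 was lower than Slc16a12 in both groups, at 10.9 with VLX-1005 and 11.9 with vehicle.

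In the Slc15 family Slc15a3, the other endolysosomal member, was the only own row tested, at 373 ± 104 CPM with VLX-1005 and 356 ± 15.1 CPM with vehicle and a log2 fold change of 0.06 ± 0.16 (SE, edgeR adjusted p = 0.881). Its partner on the other strand, Tmem132a, shares 1541 bases with it and had 202, 263 and 176 counts in VLX-1005 replicates 1 to 3 and 108, 67, 23 and 171 in vehicle replicates 1 to 4. Its CPM did not overlap between the groups, though by little, the lowest VLX-1005 library being at 137 CPM and the highest vehicle library at 134 CPM. The log2 fold change of Tmem132a was 1.23 ± 0.56 (SE, edgeR adjusted p = 0.309). The intestinal and renal peptide transporters Slc15a1 and Slc15a2 had 0 and 19 counts, and Slc15a5 had 2.

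**Figure D3:**
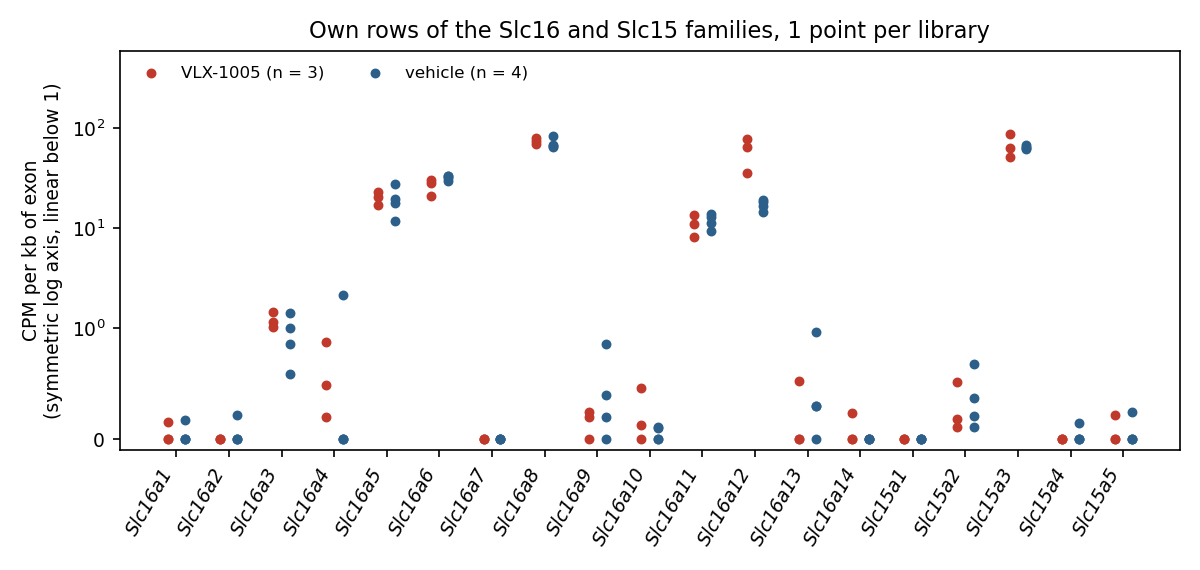
CPM per kb of exon for the own rows of the Slc16 and Slc15 families, 1 point per library, VLX-1005 left of vehicle for each gene, on a symmetric log axis that is linear below 1. Slc16a12 is the tested family member whose groups are apart, at means of 59.5 with VLX-1005 and 17.0 with vehicle, and Slc15a4 lies at 0 in all libraries but 1.

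The own rows of other genes of creatine handling held few counts, with the same doubt about strand as above. Of 7 besides Slc16a12, only Ckb, the brain-type creatine kinase, was tested, at 20.5 CPM with VLX-1005 and 25.1 CPM with vehicle and a log2 fold change of -0.28 ± 0.31 (SE, edgeR adjusted p = 0.660). Slc6a8, the creatine importer, had 4 counts with VLX-1005 and 9 with vehicle, and Gamt, which completes creatine synthesis, had 5 and 5. Gatm, the first enzyme of that synthesis, had 1 count with VLX-1005 and 0 with vehicle. The muscle creatine kinase Ckm had 23 counts with VLX-1005 and 32 with vehicle, the mitochondrial kinase Ckmt1 had 6 and 3, and Ckmt2 had none. Of the chaperones that bring monocarboxylate transporters to the membrane, Bsg had 35 counts with VLX-1005 and 25 with vehicle. Emb (log2 fold change 0.01) and Nptn (-0.58) were tested and not called (edgeR adjusted p = 0.996 and 0.583). With 2.37% of all tested genes called, so few tested rows give no result about creatine handling or the chaperones.

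Over all 4218 tested genes 2.37% were called with edgeR, and 759 had an unadjusted p under 0.05. Of 22 genes of endolysosomal nucleic acid and peptide sensing around Slc15a4, 7 were tested. Of these 7, 0 were called with edgeR, also 0 at an unadjusted p under 0.05. Their median log2 fold change was -0.08, against -0.01 over all tested genes. Irf5, the transcription factor that the Slc15a4 complex activates, had 560 CPM with VLX-1005 and 650 CPM with vehicle, -0.21 ± 0.11 on the log2 scale (SE, edgeR adjusted p = 0.329), and lies opposite Tnpo3. Its groups did not overlap, at 509 to 617 CPM with VLX-1005 and 631 to 682 CPM with vehicle, while those of the other 6 tested genes did. Since 17.6% of all tested genes had groups that did not overlap, this does not set Irf5 apart. Myd88, the adaptor of most Toll-like receptors, had 39.4 CPM with VLX-1005 and 30.0 CPM with vehicle, 0.39 ± 0.26 (SE, edgeR adjusted p = 0.442). Irak4, the kinase downstream of it, gave -0.15 (edgeR adjusted p = 0.483), Irf7 0.11 (0.908), the peptidoglycan sensor Nod1 -0.08 (0.907), and the lysosomal genes Lamp1 and Ctsb 0.06 and -0.18 (0.925 and 0.853). Apart from Nod1, each of these 7 lies opposite another gene. The receptors Tlr7, Tlr8 and Tlr9, the ligase Traf6 and 5430427O19Rik, an older symbol of the TASL gene, were at 0 in all 7 libraries. Of the other listed genes with at least 10 counts, Tlr3 had 3 counts with VLX-1005 and 9 with vehicle, Irak1 had 11 and 4, and Slc46a3 had 8 and 15. Of 7 genes opposite a gene of this list, 5 were tested and 0 called with edgeR (2 at an unadjusted p under 0.05).

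Over the whole solute carrier superfamily, 39 own rows were tested of 379 in the table. Of the 38 besides Slc16a12, 0 were called with edgeR (7 at an unadjusted p under 0.05), 16 were higher and 22 lower with VLX-1005, and the median log2 fold change was -0.09. They ranged from -1.75 for Slc2a8, a glucose transporter, to 0.83 for Slc20a1, a phosphate transporter. Of the 85 rows lying opposite a solute carrier gene, 49 were tested. Of the 48 besides Gm43474, 1 was called, 12 had an unadjusted p under 0.05, 28 were higher and 20 lower, and the median was 0.11. The call was B930094E09Rik, opposite the mitochondrial carrier gene Slc25a46, at 1.11 ± 0.21 (SE, edgeR adjusted p = 0.0188), with 871 counts with VLX-1005 and 528 with vehicle, and it was lost in 7 of the 13 other settings. A share of 1 in 48 lies near the 2.37% of all tested genes, and sets this small can hold 0 calls at that share. Of 4216 tested genes besides both members, 757 had an unadjusted edgeR p under 0.05, with 2069 higher and 2147 lower. The counts of carrier rows are thus a description and no result about solute carriers.

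**Figure D4:**
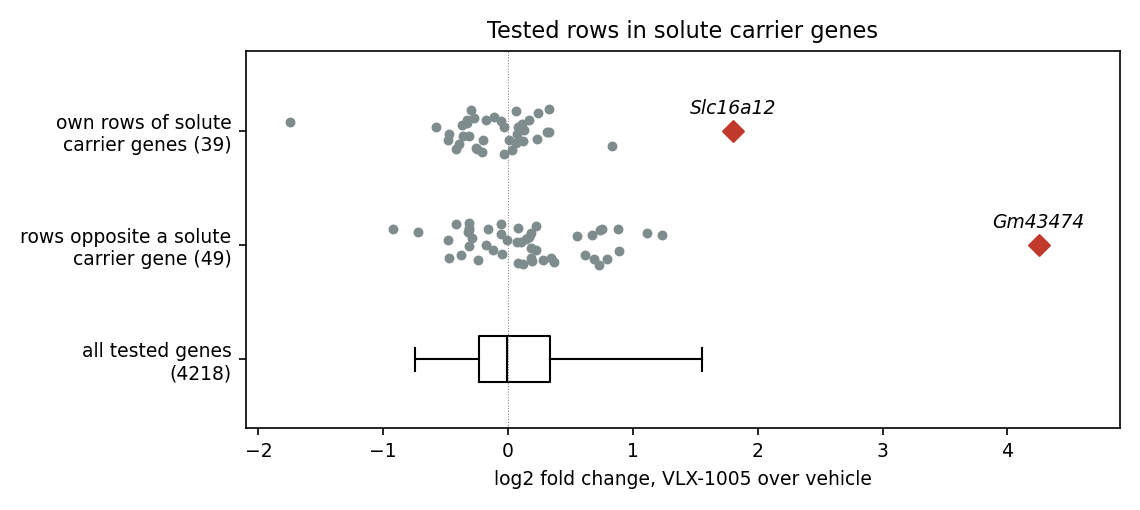
Log2 fold change of VLX-1005 over vehicle for the 39 tested own rows of solute carrier genes, the 49 tested rows opposite one, and all 4218 tested genes (box: quartiles and median; whiskers: central 95%). Slc16a12 at 1.80 and Gm43474 at 4.25 (diamonds) lie to the right of the other rows, which end at 0.83 and 1.23; both were selected with their fold change known.

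Across the 7 libraries, log2 CPM of Slc16a12 and Gm43474 correlated with Pearson r = 0.970. This is a description, since both rows were known to differ between the 2 groups. By r, Gm43474 was 28th closest to Slc16a12, and Slc16a12 was 35th closest to Gm43474. The 5 genes closest to Slc16a12 were Yy1 (r = 0.987), a zinc finger transcription factor, 1810049J17Rik (0.987, opposite Golph3), 1110035H17Rik (0.986, opposite Fam98c), Gm45444 (0.986, opposite Cyth2) and Pip5k1c (0.985), a kinase that makes the membrane lipid PIP2. Yy1 had 51.1, 81.3 and 27.9 CPM in VLX-1005 replicates 1 to 3 and 14.2, 17.7, 12.8 and 11.7 CPM in vehicle replicates 1 to 4, the same order of VLX-1005 libraries as Slc16a12. Those closest to Gm43474 were 9330160F10Rik (0.994, opposite Borcs6), 4930539J05Rik (0.993, opposite Ube2d3), B230322F03Rik (0.993, opposite Nudt19), D930007J09Rik (0.992, opposite Wrnip1) and Gm17092 (0.991, opposite Hnrnpd). Of these 10 genes 8 lie opposite another gene, near the 81% of all tested genes that do (3416 of 4218). All 10 had log2 fold changes between 0.89 and 2.02, against 4.25 for Gm43474. They were picked for likeness to genes selected with their difference known, so higher values with VLX-1005 follow from that choice. The larger fold change of Gm43474 is no result either, since it was known at selection.

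The size of both fold changes depended on the setting. Their sign is no sign of stability, since the genes were selected with these values known. Over the 13 other settings tried, Slc16a12 ranged from 1.22 to 2.05 and Gm43474 from 2.68 to 4.66, the lowest value of each being that with the ribosomal RNA share as a covariate. Leaving out VLX-1005 replicate 2 gave 1.57 and 3.60, and leaving out VLX-1005 replicate 3 gave 2.05 and 4.66, for Slc16a12 and Gm43474 in that order.

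**Figure D5:**
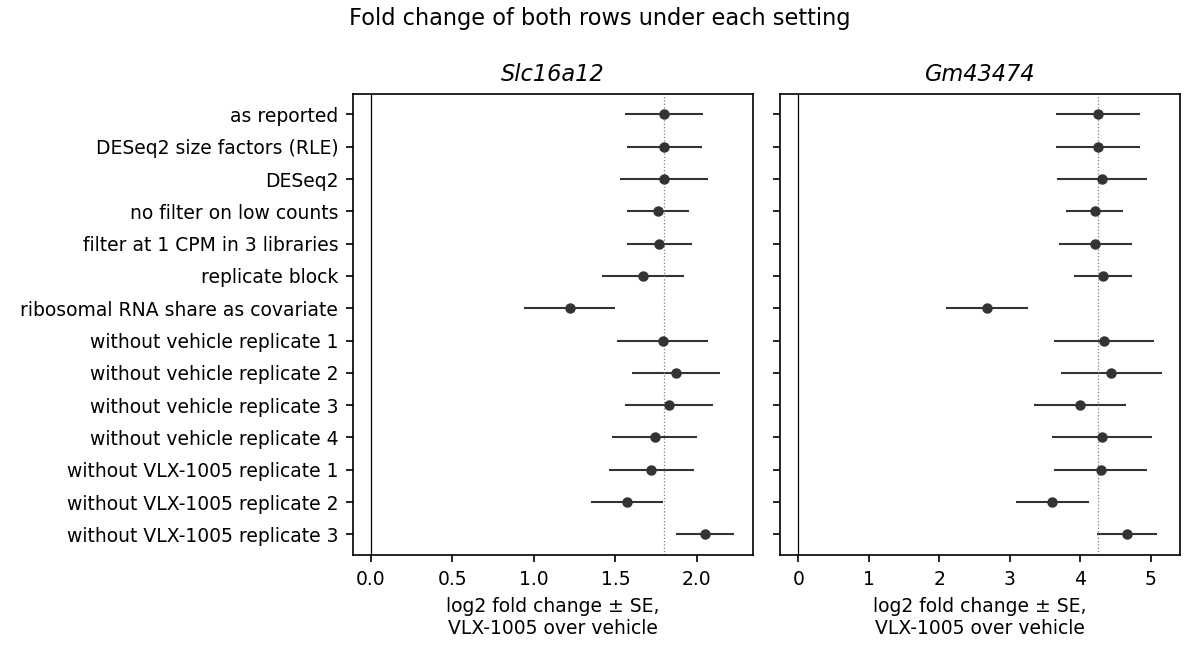
Log2 fold change of VLX-1005 over vehicle with its SE for Slc16a12 (left) and Gm43474 (right) as reported (top) and in the 13 other settings; the dotted line marks the reported value. All values are above 0, and the lowest are 1.22 for Slc16a12 and 2.68 for Gm43474.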

How the data were processed

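Counts in the deposited table are whole reads per Ensembl gene, not normalized, for 7 libraries of polyadenylated islet RNA made with a strand-specific TruSeq kit. The authors trimmed reads with Trimmomatic, checked them with FastQC, aligned them to mm10 with HISAT2 and counted with HTSeq in Galaxy. Versions, annotation release and strand setting: not given in the sources used here. Gene IDs were matched to GENCODE M21 (Slc16a12 as version 3, against 4 in M21), and bedtools 2.31.1 listed exons on the other strand. Promoters came from RefSeq, where both transporter genes matched.

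The comparison used edgeR 4.0.16 in R 4.3.3 (quasi-likelihood, two-sided, TMM, filterByExpr, robust), with Benjamini-Hochberg adjustment over 4218 genes and calls at 0.05. The filter left 44222 genes untested. Log2 CPM took a prior count of 2. The fit was tested on simulated data. Named were both genes, Slc15a4, neighbours and list genes with at least 10 counts, tested Slc16 and Slc15 rows and the 5 genes most correlated with each. Genes below 10 counts and the extreme or called solute carrier rows were named after their values were seen. Genes, lists and settings were chosen with earlier results of these data known. Alternatives were DESeq2 1.42.0, its size factors, 2 other filters, a replicate block, a ribosomal RNA covariate and omission of each library. No 2 libraries agreed within sampling noise (chi-square per degree of freedom 4.28 to 23.0).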

Additional observations from a re-analysis of the deposited data

How the results depend on the processing

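The log2 fold changes of Slc16a12 and Gm43474 stayed within 1 SD of the spread between replicates except with the ribosomal RNA share as a covariate (1.22 and 2.68). Leaving out 1 library at a time gave 1.57 to 2.05 for Slc16a12 and 3.60 to 4.66 for Gm43474. The number of genes called over the table, 100 as reported, was 197 with DESeq2, 263 without a low-count filter, 164 when 1 CPM in 3 libraries was required, 0 with the covariate and 14 to 203 with 1 library left out; the lowest was without vehicle replicate 1 and the highest without VLX-1005 replicate 3. Neighbours called were 1 in place of 0 with DESeq2 and with no filter (Gm26902), and 0 in every fit with 1 library left out. Own solute carrier rows called other than Slc16a12 were 0 to 1 with 1 library left out, the 1 being without VLX-1005 replicate 3. Opposite rows called other than Gm43474 were 2 with no filter, 0 with the covariate and 0 to 2 with 1 library left out, and the call of B930094E09Rik was lost in 7 of 13 settings.

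Fold changes near 0 turned sign without being called. With the covariate Slc16a5 was at -0.02, Slc16a8 at -0.04, Slc16a11 at 0.11 and Slc15a3 at -0.27. With 1 library left out Slc16a5 ranged from -0.09 to 0.30 (-0.09 without vehicle replicate 2, -0.04 without VLX-1005 replicate 1), Slc16a8 from 0.02 to 0.16, Slc16a11 from -0.31 to 0.05 (0.05 without VLX-1005 replicate 2) and Slc15a3 from -0.17 to 0.22 (-0.17 without VLX-1005 replicate 2). The cause of these changes was not tested.

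With the replicate number as a block, Slc16a12 was at 1.67 and Gm43474 at 4.32, the table had 19 calls and opposite rows had 0. The labels do not say whether the numbers pair the samples. Deviations of same-numbered libraries from their group means correlated at -0.0348, -0.0196 and 0.0879. This gave no sign of pairing by number, but so few libraries cannot exclude it. Slc15a4 and most neighbours had too few counts to be compared, and how far depth (1024586 to 1430785 counts a library) or the unknown strand setting accounts for this was not tested.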
